A study of Mus musculus with 15 samples.

Results

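Genes of transforming growth factor beta (TGF-beta) and myostatin signaling were examined for H3K27ac, the acetylation of histone H3 that marks promoters and enhancers in use, in fusion-positive rhabdomyosarcoma (FP-RMS) of the mouse. The 10 genes were the ligands Tgfb1, Tgfb2, Tgfb3 and Mstn, the receptors Tgfbr1 and Tgfbr2, the signal transducers Smad3 and Smad4, and the inhibitors Smad7 and Skil. They were taken by name, with earlier results of these data known. Every peak of the deposited list that overlapped the RefSeq span of 1 of these genes in the mouse genome mm10, or the 50 kb either side of it, was counted as a peak of that gene. This gave 212 of the 122375 peaks in the list, around 10 of 21000 protein-coding genes. Each peak was placed in 1 of 3 classes. A promoter peak overlapped the 2 kb either side of a transcription start site, a gene body peak overlapped the rest of the gene span, and a flank peak lay outside it.

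The study profiled H3K27ac by CUT&RUN, in which a nuclease tethered to an antibody releases the DNA beside the mark, in tumors of 2 mouse models with 15 libraries in all. The peak list used here came from 1 library, MCP H3K27ac replicate 5, so there were no replicates, and every value is a single measurement. The interval of a fold covers counting error only. Intervals of shares and medians treat genes or peaks as draws, although these are not replicates. Its tumor model carried Myf6-Cre with Cdkn2a(Flox/Flox), together with Pax(3P3F/P3F), which the study's text writes as Pax3(P3Fm/P3Fm), and the reporter R26-tdTom. Cre made from the Myf6 locus, active in myogenic cells, turned on the fusion protein PAX3-FOXO1, removed Cdkn2a and marked the cells with tdTomato. The age of the mouse and the number of tumors behind the library are not given in the sources used here. TCP tumors, in which Tek-Cre took the place of Myf6-Cre, were not analyzed here, and no comparison between tumors was made.

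TGF-beta ligands are secreted in a latent form and, once released, bring type II and type I serine/threonine kinase receptors together on the cell surface. The type I receptor phosphorylates SMAD2 and SMAD3, which bind SMAD4, enter the nucleus and act on target genes. SMAD7 blocks the receptors and is itself induced by the pathway, and SnoN, the product of Skil, represses SMAD-bound genes. Myostatin, the product of Mstn, signals through activin type II receptors to the same SMADs and limits the growth of skeletal muscle, and TGF-beta is known for holding back the differentiation of muscle cells.

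Sequences at the strongest promoter peak of Tgfbr2 and Skil, and at the strongest peak of Smad3 and Tgfb2, which had none at the promoter, show what lay under the mark, and promoters of 2 genes without a promoter peak show what the list left unmarked. Letters are from GRCm38, the assembly of mm10. In the windows of 100 bases either side of a summit, given on the plus strand, capitals mark the SMAD-binding letters CAGAC, the AP-1 letters TGANTCA and the E-box CAGCTG on either strand. The Tgfbr2 window, chr9:116174586-116174786, lay under a promoter peak in intron 1. It held CAGCTG once and had a GC content of 64.2%.
Tgfbr2: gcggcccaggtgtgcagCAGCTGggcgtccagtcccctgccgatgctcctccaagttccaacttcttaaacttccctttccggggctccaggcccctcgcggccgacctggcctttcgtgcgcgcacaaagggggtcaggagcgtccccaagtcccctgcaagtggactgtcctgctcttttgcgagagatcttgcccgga
The Skil window, chr3:31095924-31096124, lay under a promoter peak in intron 1 and held 1 CAGAC match, on the minus strand.
Skil: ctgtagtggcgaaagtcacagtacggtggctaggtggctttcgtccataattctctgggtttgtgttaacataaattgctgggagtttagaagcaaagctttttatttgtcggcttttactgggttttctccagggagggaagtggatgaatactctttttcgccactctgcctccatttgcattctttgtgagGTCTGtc
The Smad3 window, chr9:63745684-63745884, lay in intron 1 far from the start site and held 1 CAGAC match.
Smad3: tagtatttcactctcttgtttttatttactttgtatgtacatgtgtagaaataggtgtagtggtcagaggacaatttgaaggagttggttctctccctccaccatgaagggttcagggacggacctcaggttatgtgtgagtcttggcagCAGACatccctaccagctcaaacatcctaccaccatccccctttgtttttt
The Tgfb2 window, chr1:186749614-186749814, lay in the upstream flank and held the highest fold enrichment of all 212 peaks. Its summit was 43.7 kb from the Tgfb2 start site but 356 bp from that of Rrp15, in the promoter window of Rrp15. It had none of the 3 motifs but 2 stretches in which the letters TTG were repeated, up to 9 times in a row. In the reference 43.3% of its bases were marked as repeat.
Tgfb2: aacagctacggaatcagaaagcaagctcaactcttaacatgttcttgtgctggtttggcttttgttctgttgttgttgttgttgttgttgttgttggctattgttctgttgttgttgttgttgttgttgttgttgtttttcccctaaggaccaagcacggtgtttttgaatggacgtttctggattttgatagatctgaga
The RefSeq promoters are 300 bases long, most of them before the start site, and capitals mark CpG, the base pair step that is dense in many promoters active in most cells. The Mstn promoter, chr1:53061390-53061689 on the plus strand, held 6 CpG at a GC content of 41.3%.
Mstn: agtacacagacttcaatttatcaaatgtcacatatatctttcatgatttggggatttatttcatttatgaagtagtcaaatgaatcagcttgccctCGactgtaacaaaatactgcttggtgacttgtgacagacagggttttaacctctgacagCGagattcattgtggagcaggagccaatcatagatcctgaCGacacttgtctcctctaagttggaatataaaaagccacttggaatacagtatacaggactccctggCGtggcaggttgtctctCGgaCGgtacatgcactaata
The Smad3 promoter, chr9:63757945-63758244 on the minus strand, held 25 CpG at a GC content of 67.7%.
Smad3: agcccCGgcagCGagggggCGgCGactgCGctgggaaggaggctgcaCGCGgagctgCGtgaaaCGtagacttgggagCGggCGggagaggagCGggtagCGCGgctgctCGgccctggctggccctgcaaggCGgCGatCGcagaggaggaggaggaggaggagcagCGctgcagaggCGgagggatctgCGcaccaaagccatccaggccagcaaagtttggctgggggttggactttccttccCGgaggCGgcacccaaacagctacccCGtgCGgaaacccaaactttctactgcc
Both promoters lacked a listed peak, one rich and the other poor in CpG.

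H3K27ac peaks were listed around 9 of the 10 genes, and promoter peaks at 6 of them: Tgfb1, Tgfb3, Tgfbr2, Smad4, Smad7 and Skil. Tgfb2, Tgfbr1 and Smad3 (3 of 10) had peaks inside the gene but none at the promoter, beside 8.27% of all genes, and Mstn had none at all. The 6 of 10 with a promoter peak (60%, Wilson 95% interval 31.3 to 83.2%) compare with 45.6% of all 21000 protein-coding genes, which lies within the interval. A peak inside the gene span was found in 9 of 10 genes (90.0%, 59.6 to 98.2%) against 50.9% of all genes, and a peak in the span or the 50 kb either side in the same number against 77.9% of all genes. The median span of the 10 genes was 45.1 kb and that of all genes 17.7 kb, and the part of gene length in these counts was not tested. In a library of many cells, fewer cells with the mark and less of it per cell cannot be told apart.

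Of the 212 peaks, 17 were at promoters, 108 in gene bodies and 87 in flanks. Fold enrichment is the caller's ratio of fragments over the summit to the local background. It had a median of 4.89 over all 212 peaks (95% interval of the median 4.79 to 5.22) and of 5.22 over the whole list. The median was 4.83 at promoters (4.36 to 6.82), 5.03 in gene bodies (4.76 to 5.22) and 4.83 in flanks (4.76 to 5.25). Over the whole list the promoter, gene body and flank medians were 5.55, 5.05 and 5.17. There each peak took its first class, in that order, for any protein-coding gene. A flank peak of the whole list thus lay in no protein-coding gene's promoter or body. Of the members' 87 flank summits, 37 lay in introns of other genes, so the class medians are of unlike sets. Thus the 3 classes of the members had overlapping intervals, and the median of the list equaled the upper end of the interval for all 212 peaks. A fold of 7 or more was reached by 29 of the 212 peaks (13.7%) and by 17.5% of the whole list.

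**Figure D1:**
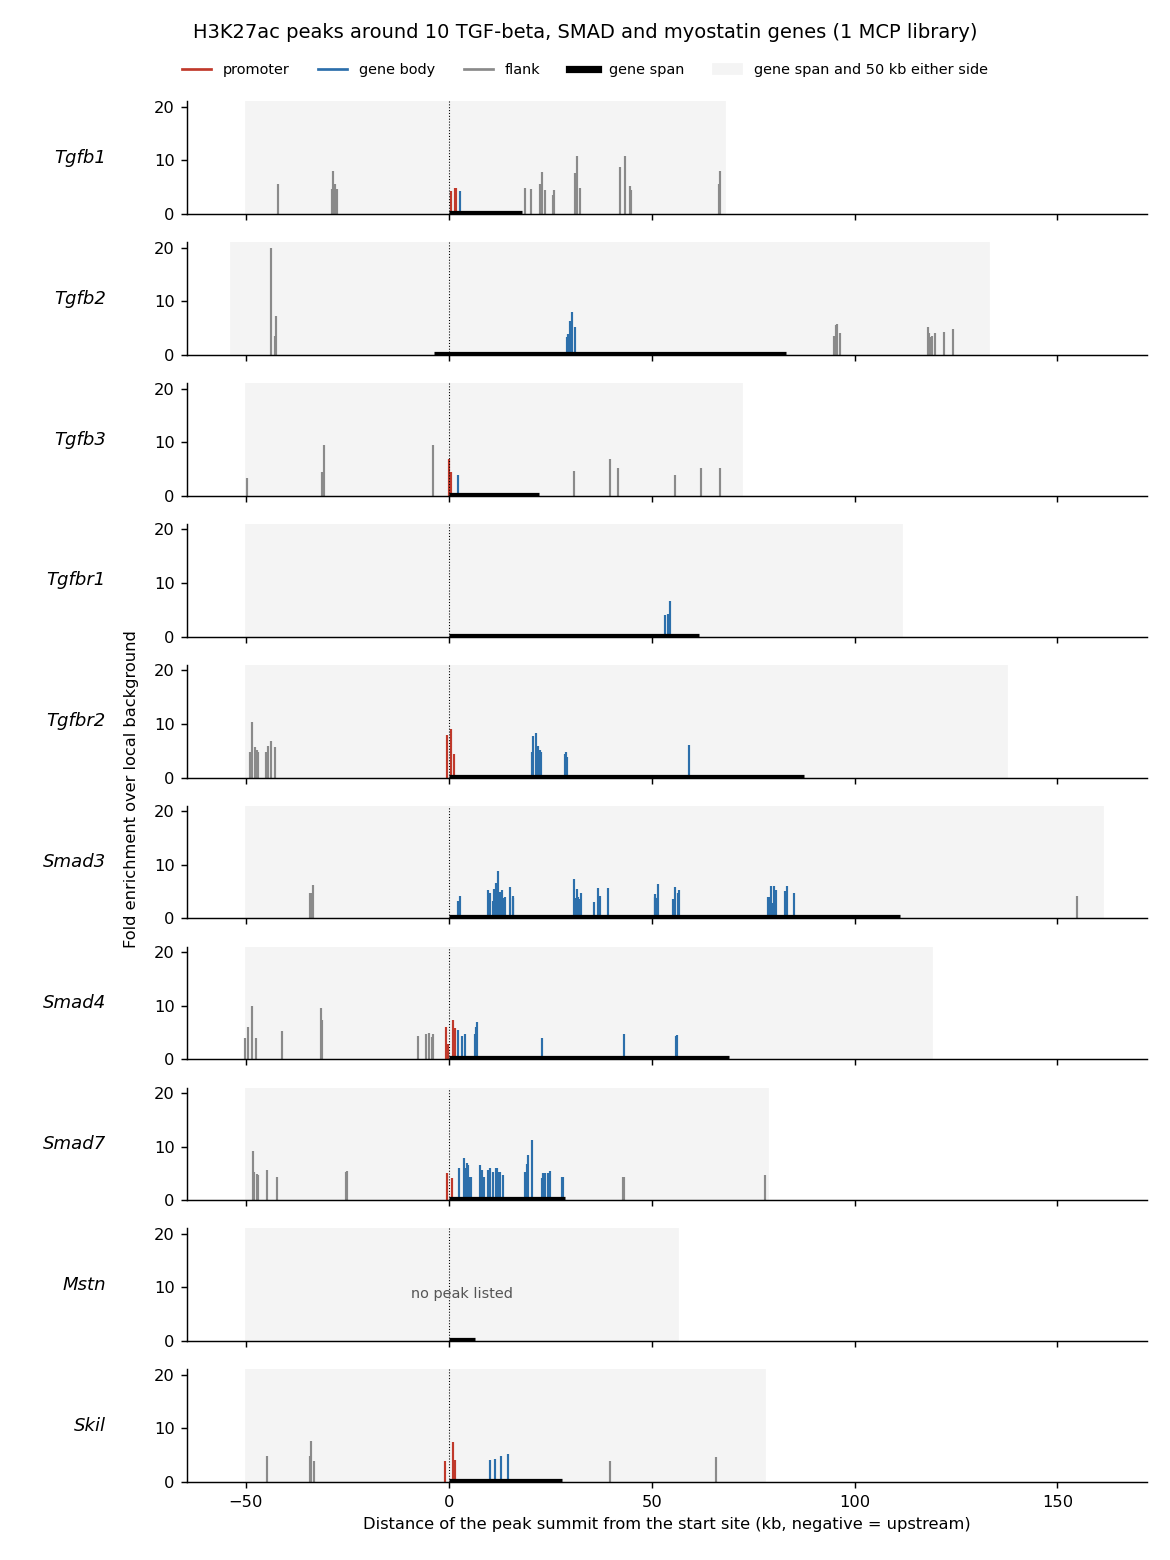
Each panel shows the listed peaks of 1 gene as lines at the distance of the summit from the start site (kb, negative upstream), with fold enrichment as height, for 1 MCP library. Smad3 and Smad7 have most of their peaks inside the gene, Tgfb1 has 21 of 25 in its flanks, and Mstn has none.

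Among the TGF-beta ligands, Tgfb1 and Tgfb3 had modest promoter peaks and Tgfb2 had none. Tgfb1 (chr7:25687002-25705077, plus strand), the best-known isoform, had 3 promoter peaks, 1 gene body peak and 21 flank peaks. Its promoter summits lay 0.496 kb, 1.57 kb and 1.85 kb downstream of the start site, in the 5′ untranslated part of exon 1 and in intron 1, at folds of 4.36, 4.79 and 4.83. The strongest of the 3 rested on 12 fragments (counting interval of the fold 2.70 to 8.13) and equaled or exceeded the strongest promoter peak of 13.5% of the genes that had one. None of the 3 reached a -log10 q of 5. The strongest peaks near Tgfb1 were in its flanks, and both had a fold of 10.8 (7.11 to 15.9). They lay 31.7 kb and 43.5 kb downstream of the start site, in introns of Ccdc97 and Hnrnpul1, and 9 of the 21 flank peaks overlapped the promoter windows of Bckdha, Exosc5, Ccdc97 or Hnrnpul1. No flank peak of Tgfb1 had the Tgfb1 start site as its nearest.

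Tgfb2 (chr1:186622787-186709697, minus strand) is an isoform with roles in heart and skeletal development. It had no promoter peak, 5 peaks in intron 2 and 14 flank peaks. The 5 intronic peaks lay together between 29.1 kb and 31.0 kb downstream of the start site, and the strongest had a fold of 7.92 (4.95 to 12.1) from 19 fragments. The flank peak of fold 19.9 (14.6 to 26.4), from 45 fragments, lay 43.7 kb upstream at chr1:186749442-186750115. That position is in the promoter window of Rrp15, a gene of ribosome biogenesis, and 3 of the 14 flank peaks were there. A further 5 were in the promoter window of Gm35546 on the other side of the gene. The window of Tgfb2, 187 kb long, held 19 peaks, and none of its 14 flank peaks was nearest to the Tgfb2 start site.

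Tgfb3 (chr12:86056743-86079041, minus strand), an isoform needed for closure of the palate, had 2 promoter peaks, 1 gene body peak and 10 flank peaks. Both promoter summits were in the 5′ untranslated part of exon 1, at 0.111 kb with a fold of 6.82 (4.03 to 10.9) and at 0.634 kb with a fold of 4.36 (2.26 to 7.84). The first spanned 811 bp, against a median width of 163 bp in the whole list. The strongest flank peaks lay 3.88 kb and 30.7 kb upstream, both with a fold of 9.53 (6.08 to 14.3) and both in introns of Ift43, which codes for a protein of ciliary transport. The nearer of them was in the promoter window of Ift43. In all 3 TGF-beta ligands the strongest peak in the window lay outside the ligand gene. The same held for Tgfbr2, Smad4 and Skil, and the share of all genes for which it holds was not counted.

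The receptors differed from each other. Tgfbr2 (chr9:116087695-116175363, minus strand), the type II receptor that binds the ligand first, had 3 promoter peaks, 10 gene body peaks and 9 flank peaks. Its promoter peak of fold 9.10 (5.75 to 13.8), shown above by its sequence, lay 0.677 kb downstream of the start site, in intron 1, and was the strongest promoter peak of the 6 members that had one. It equaled or exceeded the strongest promoter peak of 73.3% of all genes with one. A wider one of 974 bp, just upstream of the start site, had a fold of 7.999 (5.34 to 11.6), and the last had 4.36. Of the 10 gene body peaks, 9 lay in intron 2, at up to 8.29 (5.58 to 11.9) from 27 fragments. All 9 flank peaks were intergenic, and the strongest, of fold 10.4 (6.76 to 15.3), lay 48.6 kb upstream of the start site.

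Tgfbr1 (chr4:47353222-47414926, plus strand), the type I receptor that passes the signal to SMAD2 and SMAD3, had 3 peaks in all. None was at either of its 2 curated start sites, and none was in the flanks. They lay 53.3 kb to 54.4 kb downstream, in introns 7 and 8 near the end of the gene, with folds of 3.99, 4.32 and 6.74. The strongest rested on 16 fragments (4.04 to 10.7). At 1.86 peaks per 100 kb the window of Tgfbr1 was sparser than that of 69.5% of all genes, although its start site held 113 CpG within 500 bp and 73.1% of genes of that CpG range had a promoter peak. The lowest number of fragments in any listed peak of the library was 7, so signal below that level is not in the list, and no peak does not mean no acetylation.

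The signal transducers Smad3 and Smad4 were both rich in peaks, in different places. Smad3 (chr9:63646766-63757994, minus strand), a receptor-activated SMAD, had 48 peaks, the most of the 10 genes, of which 44 were in the gene body and none at the promoter. All 44 lay in intron 1, which took up 84.4% of the intronic length at 89.5 kb, and none lay in the other 7 introns. They fell into groups along the intron, with 14 peaks between 9.61 kb and 16.02 kb from the start site, 10 between 30.7 kb and 39.3 kb, 8 between 50.6 kb and 56.8 kb, and 10 between 78.7 kb and 85.2 kb. Another pair lay between 2.34 kb and 2.78 kb, just past the limit of the promoter window, at folds of 3.28 and 4.17. The strongest peak, 12.2 kb from the start site, had a fold of 8.88 (5.78 to 13.1) from 23 fragments, and the median of the 48 was 4.73. Among the 534 genes with 30 or more peaks in the span, 58 (10.9%) had none at the promoter, and Smad3 was 1 of them. With the start sites of GENCODE, which lists 5 for Smad3, 7 of these intronic peaks came within 2 kb of a start site, the strongest at a fold of 5.94, so whether Smad3 has a promoter peak depends on which start sites are used.

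Smad4 (chr18:73634790-73703791, minus strand), the partner shared by all receptor-activated SMADs, had 4 promoter peaks, 10 gene body peaks and 12 flank peaks. The promoter peaks lay on both sides of the start site, with folds of 6.08 and 2.90 upstream and 7.37 and 5.94 downstream. The strongest, of fold 7.37 (4.42 to 11.7), lay 0.931 kb downstream of the start site, in intron 1. All 4 also fell in the promoter window of the neighboring 4930578L24Rik, and the 2 upstream summits lay in an exon of that gene, so these peaks cannot be assigned to 1 of the 2 genes. Of the 10 gene body peaks 7 were in intron 1. In the flank, 3 peaks were in the promoter window of Elac1, the strongest at a fold of 9.96 (6.42 to 14.8).

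Of the inhibitors, Smad7 had the densest window of the 10 genes and Skil an ordinary one. Smad7 (chr18:75367365-75395935, plus strand) had 43 peaks, with 2 at the promoter, 30 in the gene body and 11 in flanks. Both promoter peaks were weak, at folds of 5.17 (2.88 to 8.69) and 4.17 (2.37 to 6.89), neither reached a -log10 q of 5, and both also fell in the promoter window of Gm20544. With the start sites of GENCODE, 5 for Smad7, 12 peaks were at a promoter and the strongest had a fold of 7.80. Introns 2 and 3 held 9 and 18 of the gene body peaks, and 1 more lay in intron 1 and 2 in exon sequence beyond the coding part, near the end of the gene. The strongest, of fold 11.2 (7.45 to 16.4) from 25 fragments, lay 20.6 kb downstream in intron 3 and was the highest gene body value of the 10 genes. Peaks covered 31.9% of the Smad7 span, against 7.20% for Smad3 and at most 6.63% for the other members. The window had 33.4 peaks per 100 kb, 7.96 times the density of its chromosome, and 2.21% of all genes had a denser one. With only the strongest 25% of peaks by q, the window of Tgfb1 had 6.78 peaks per 100 kb and that of Smad7 4.67, so the order of these genes turned.

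Skil (chr3:31095058-31122923, plus strand) had 3 promoter peaks, 4 gene body peaks and 6 flank peaks. Its strongest promoter peak, with the sequence shown above, had a fold of 7.41 (4.87 to 10.9) from 24 fragments and lay 0.966 kb downstream of the start site, in intron 1. The other promoter peaks had folds of 3.87 and 4.17, and the gene body peaks, all in intron 2, reached 5.22 (2.85 to 8.96). A flank peak of fold 7.66 (4.78 to 11.7), 33.8 kb upstream, was the highest in the window, and the interval overlapped that of the promoter peak.

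Mstn (chr1:53061640-53068079, plus strand) had no peak in its span or the 50 kb either side. The nearest summits lay 87.8 kb upstream, at a fold of 4.17 from 13 fragments in an intron of 1700019D03Rik, and 202 kb downstream, at a fold of 3.28 from 7 fragments in an intron of Pms1. Peak names are numbered along the genome, and no number was absent between them. A window without any peak was found for 22.1% of all genes, and Mstn was 1 of these 4640 genes. The Mstn start site had 18 CpG within 500 bp, and 17.5% of genes in that CpG range had a promoter peak, whereas the other 9 members had 43 to 150 CpG and came from ranges in which 49.8 to 73.1% of genes had one. Over the 10 members those shares averaged 63.8%, close to the 60% observed.

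**Figure D2:**
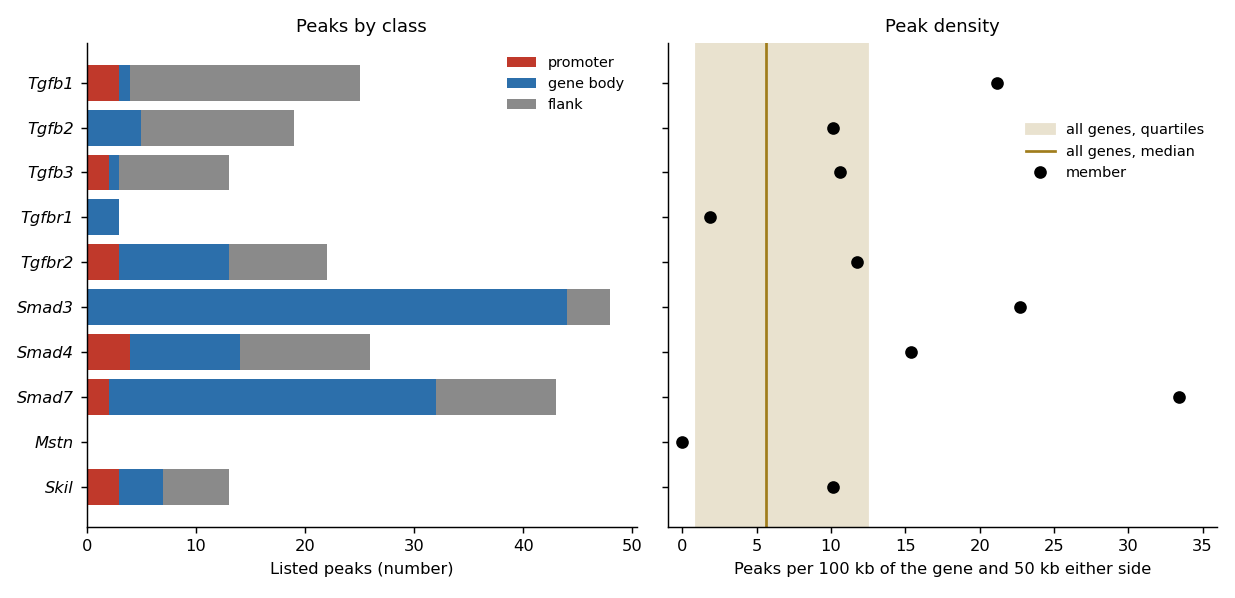
Left, the number of listed peaks of each gene by class (stacked bars from 0). Right, peaks per 100 kb of the gene and 50 kb either side, with the median (5.62) and quartiles over 21000 genes; Smad7 (33.4), Smad3 (22.7), Tgfb1 (21.2) and Smad4 (15.4) lie above the upper quartile of 12.51.

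Across the 10 genes the density ran from 0 for Mstn to 33.4 peaks per 100 kb for Smad7, with a median of 11.2 against 5.62 over all genes (quartiles 0.901 and 12.51). In the whole list Smad3 (22.7), Tgfb1 (21.2) and Smad4 (15.4) followed Smad7, and Tgfbr2 (11.7), Tgfb3 (10.6), Skil (10.2) and Tgfb2 (10.2) lay between the median and the upper quartile. Among these, Smad3 and Tgfb1 were close together, as were the 4 of the second group. The high density of Tgfb1 came from its flanks and that of Smad3 and Smad7 from the gene itself. Number of peaks and strength are different measures, and ranks by each were not compared. The strongest promoter peak of the 6 members with one had a median fold of 7.10 against 7.24 over all genes that had one (quartiles 5.65 and 9.47).

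**Figure D3:**
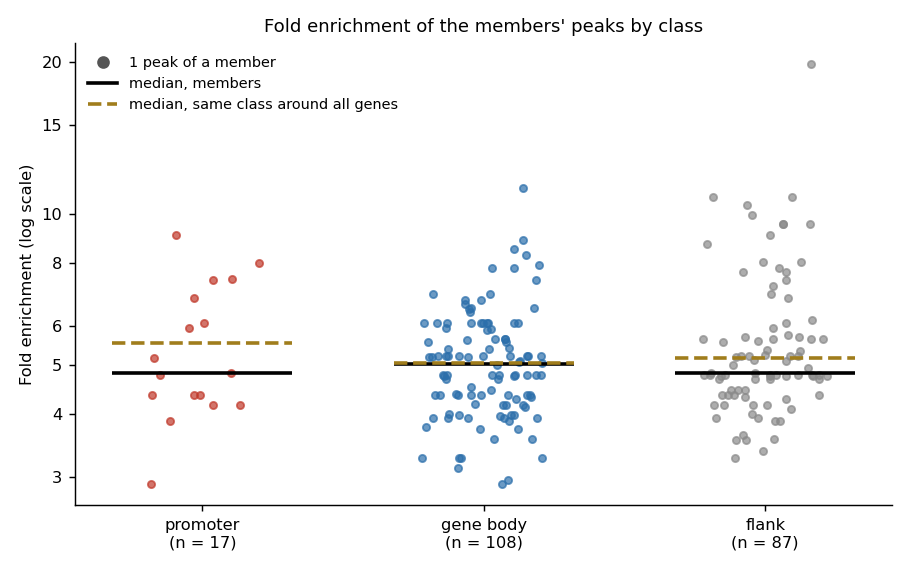
Fold enrichment (log scale) of each of the 212 peaks by class, with the members' median (solid line) and a median of the whole list (dashed line). For the dashed line each peak took its first class, promoter before gene body before flank, for any protein-coding gene. The highest point, 19.9, is the flank peak of Tgfb2 at the Rrp15 promoter; the gene body medians nearly coincide (5.03 and 5.05).

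**Figure D4:**
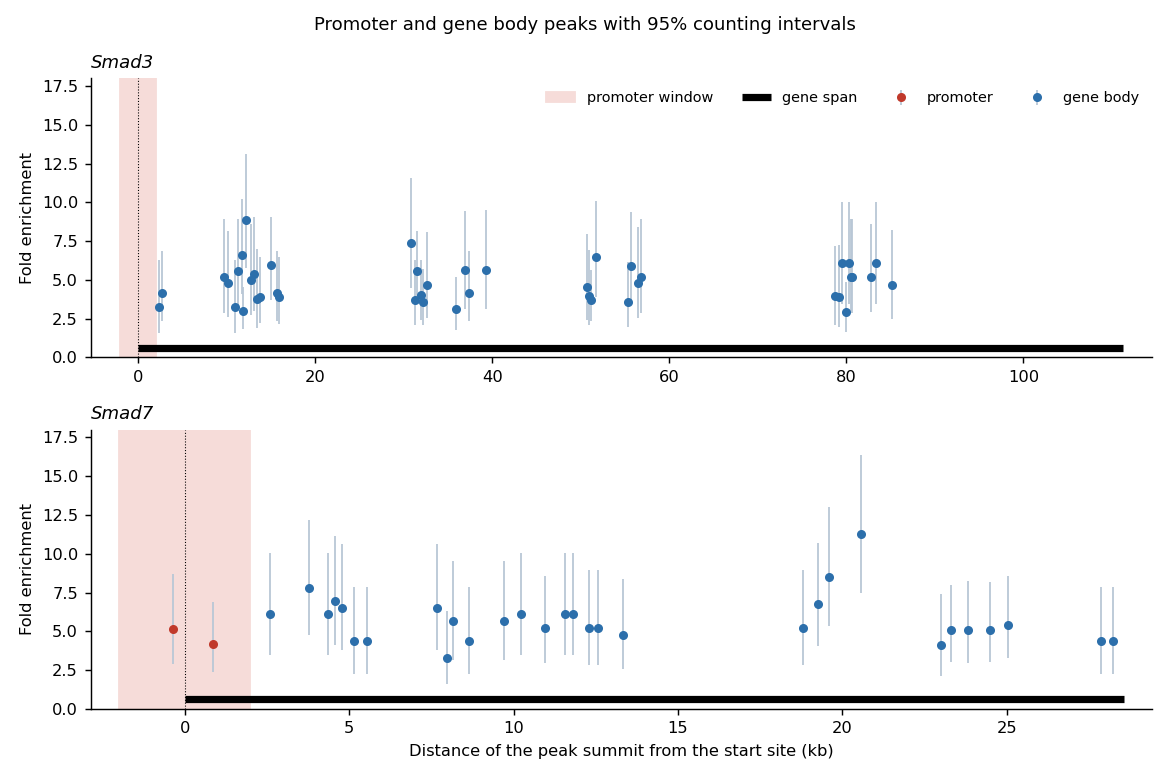
Fold enrichment of the promoter and gene body peaks of Smad3 (upper) and Smad7 (lower) by distance of the summit from the start site (kb), with 95% counting intervals; the shaded band is the promoter window. The peaks of Smad3 form separate groups along intron 1 with none in the band, and the strongest peak of Smad7 (11.2) is 20.6 kb from the start site.

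Peaks that lay near each other were joined into clusters, as is done to find super-enhancers, which are long stretches dense in H3K27ac. Peaks wholly within 1 kb of a start site were left out, those no farther apart than the distance the study used for super-enhancers were joined, and clusters were ranked by the sum of fold times width. Of 20840 clusters, 864 (4.15%) lay above the point where the ranked curve turned steep. Only 1 of them overlapped a member, a cluster of 30 peaks over 26.0 kb of Smad7 at rank 784. The best Smad3 cluster, of 18 peaks over 26.2 kb, stood at rank 3192, below 15.3% of all clusters, and that of Smad4 at rank 4117. With a joining distance of 5 kb the Smad7 cluster split into stretches of 19 and 11 peaks at ranks 1615 and 1893, and 0 member clusters were above the limit, which then stood at rank 1466. The Smad7 call thus rested on the joining distance. Fragment coverage was not used in this ranking, so it is not the ranking of the study.

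Motifs of SMADs and of factors known from muscle and tumor cells were counted within 100 bases of each summit, on both strands. CAGAC, the short letters that SMAD3 and SMAD4 bind, was found in 85 of the 212 windows (40.1%, 33.7 to 46.8%) and in 39.6% of the windows of the whole list. The SMAD palindrome GTCTAGAC, which does not hold CAGAC, was in 0 of 212 windows, which allows a share of up to 1.42% (3 of 212, the limit taken for a count of 0), and in 0.181% of all. GGCGCC was in 2 windows (0.943%) against 1.15%. The E-box letters CANNTG, bound by myogenic factors among others, were in 64.6% of the members' windows (58.0 to 70.7%) against 64.9%, and the form CAGCTG, which CANNTG includes, in 10.8% (7.34 to 15.8%) against 10.0%. The letters of AP-1 (TGANTCA) were in 6.13% (3.62 to 10.2%) against 8.05%, of TEAD factors (GGAATG) in 11.3% (7.73 to 16.3%) against 11.4%, and of forkhead factors (TGTTTAC) in 3.77% (1.92 to 7.27%) against 3.27%. For all 8 motifs the share of the whole list fell inside the interval of the members. Repeats marked in the reference took up more than 50% of the bases of 15 windows (7.08%) among the members and of 9.46% of all windows, and 6 of those 15 were around Tgfbr2.

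The wider pathway was described from a list of 68 genes in 6 roles, which includes the 10 members. Among the 58 others, 36 (62.1%, 49.2 to 73.4%) had a promoter peak, beside 45.6% of all genes. Genes in the same CpG ranges as these 58 had one in 60.3% of cases on average. The median strongest promoter fold of the 36 was 7.20, beside 7.24 for all genes with one.

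Among ligands other than the members 3 of 7 had a promoter peak, and these were the weakest of the 6 roles, with a median strongest fold of 5.05. Inhba, which codes for the activin A subunit, had a fold of 5.65 and Bmp7, a bone morphogenetic protein, 5.05, whereas Inhbb, the activin B subunit, had no peak in its window. Receptors had a promoter peak in 6 of 10, and these had the highest median strongest fold of the 6 roles, 10.8. The type II receptors Bmpr2 (13.9) and Acvr2a (12.6), the latter a receptor of myostatin and activin, and the coreceptor Eng (11.7) led, while Tgfbr3 and Acvr1b, a coreceptor of TGF-beta and a type I activin receptor, had none at the promoter but 28 and 3 peaks in the gene. Acvr2b, the other activin type II receptor and named after its values were seen, had no peak at the promoter or in the gene and 7 in the flanks. For the SMADs 3 of 5 had a peak. Smad1, which answers bone morphogenetic proteins, and Smad2, the close relative of Smad3, both stood at a fold of 9.53, and the inhibitory Smad6 and the BMP-responsive Smad9 had none at the promoter and none in the gene.

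Repressors and inhibitors other than members had a promoter peak in 9 of 13 genes, led by Tgif1 (12.97), a corepressor of SMADs, the ubiquitin ligase Smurf2 (12.03), which acts with SMAD7 on the receptors, and Trim33 (9.10). Bambi, a decoy receptor, and Nog, an antagonist of bone morphogenetic proteins, had no peak in the gene or 50 kb either side, and Fstl3, which binds activin and myostatin, had none in the gene. Genes of latency and activation had one in 7 of 11, with Ltbp1, which holds latent TGF-beta in the matrix, at 12.1, the integrin subunit Itgav at 9.53 and Ltbp3 at 9.36. Ltbp2, Itgb6 and Lrrc32 had none, although Itgb6 held 37 peaks in the gene. Of 12 target genes 8 had one, with Id3 at 9.49, Snai2 at 8.51 and Id1 at 7.35, and Ccn2, Tgfbi and Col1a1 had none.

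**Figure D5:**
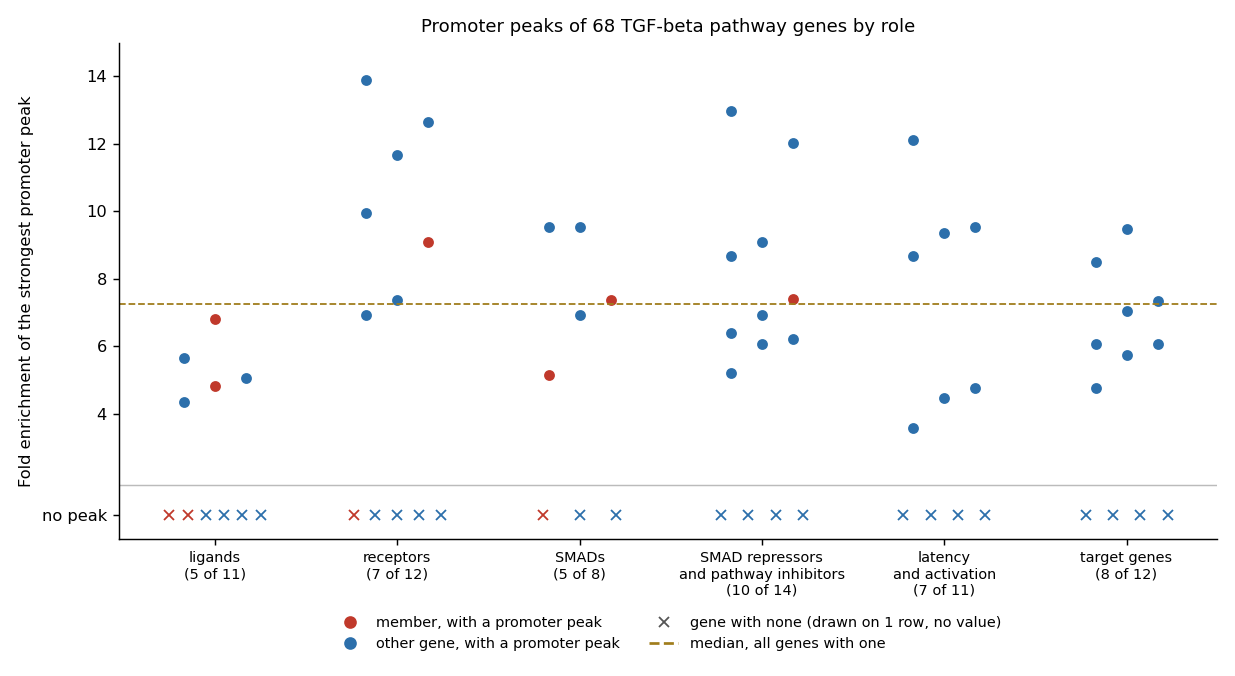
Fold enrichment of the strongest promoter peak of each of 68 pathway genes by role, members in red and other genes in blue; crosses on the lowest row are genes with no promoter peak and carry no value, and the dashed line is the median of all genes with one (7.24). Receptors reach 13.9 and ligands no more than 6.82.

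The tumor label was read against markers, in live tumor cells that the study had sorted from dissociated tumors. Of 14 myogenic genes 2 had a promoter peak (14.3%, 4.01 to 39.9%), Pax3 at a fold of 18.1 and Myf6 at 5.97, and the defining genes Myod1, Myog, Pax7 and Des had none there. Both genes with one are used by the model itself. The fusion is knocked into the Pax3 locus and driven by the Pax3 promoter, and Cre is made from the Myf6 locus. The part of these alleles in the 2 peaks was not tested. Of the lists for other cells, 1 of 14 endothelial genes (Cd34, 9.10), 2 of 8 immune genes (up to 5.91) and 3 of 8 fibroblast genes (up to 15.1, Prrx1) had one, all below the 45.6% of all genes. Genes in the same CpG ranges had one in 44.1% of cases for the myogenic list and 39.0% for the endothelial. For the immune and fibroblast lists these shares were 19.5% and 32.1%. Both lay inside the intervals of the immune (25.0%, 7.15 to 59.1%) and fibroblast (37.5%, 13.7 to 69.4%) lists. The myogenic and endothelial lists lay below their shares. Among the myogenic genes, Myod1, Myf5 and Des had 11, 29 and 15 peaks in their windows and Myog and Pax7 had 0. The median window density was 8.30 peaks per 100 kb for the myogenic list. It was 5.32 for the endothelial, 4.09 for the immune and 1.46 for the fibroblast list, beside 5.62 over all genes. Promoter peaks thus did not single out the myogenic genes in this library, and how much other cells added to the values of the 10 genes was not tested.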

How the data were processed

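CUT&RUN for H3K27ac was read from 1 deposited peak list, which the peak names and a label tie to the library MCP H3K27ac replicate 5. The authors aligned read pairs to mm10 with bowtie, removed problematic regions and a region near Col19a1, and called peaks against matched IgG with MACS; the submitters' processing notes name BWA, SAMtools and MACS2 instead, and which was used for this list is not known here. The library is not among those in the study's peak table. The deposited list gives per peak a score, a summit offset, the fold enrichment (a ratio to the local background), the -log10 p and the -log10 q as the authors' caller wrote them. The largest q was 0.0471.

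Genes, start sites and sequences were from RefSeq GRCm38, using 31601 curated start sites; of the 10 members 6 were in the promoter sequence table. An overlap of 1 bp placed a peak in a class. Fragments over each summit were solved from fold and p to within 0.01, with a whole number found for 99.999% of peaks (1 solution for 96.8%) at a scale of 0.885 between libraries; the median was 13 (quartiles 10 and 17). These are inferred, and their Poisson intervals at 95% cover counting error only, since fragments carry no molecular identifiers. Intervals at 95% of shares (Wilson) and of medians (order statistics) treat the genes or peaks of 1 library as draws. They do not measure spread between tumors. CpG was counted within 500 bp of a start site in 10 equal groups of genes. No test was made, as 1 library has no replicates. The steps were tested on simulated data. The named genes were the 10 members, their strongest peaks, neighbors whose promoter windows held such peaks, and per role of the wider list, members counted, the 3 with the strongest promoter peak and up to 3 without one; the marker genes and promoters shown were chosen after their values were seen. Members and lists were chosen with earlier results of these data known. Python 3.11.15, pandas 2.3.3 and scipy 1.17.1 were used.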

Additional observations from a re-analysis of the deposited data

How the results depend on the processing

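Each count and median was recomputed with another window, a stricter list or other start sites, the last chosen after seeing the data. The 6 members with a promoter peak became 4 with a -log10 q of at least 5 or the strongest 25% of peaks (Tgfb1 and Smad7 dropped out), beside 37.9% and 29.3% of all genes, and 7 with a 5 kb window or GENCODE start sites (Smad3 added), beside 49.1% and 47.0%. With the q limit, 7 promoter, 43 gene body and 41 flank peaks were left, at median folds of 7.37, 6.08 and 6.08 (6.08 in all). With the strongest 25%, 5, 17 and 22 were left, at 7.41, 6.94 and 8.03 (7.74 in all); folds rise here because q and fold are tied. The 17 promoter peaks became 34 with a 5 kb window and 35 with GENCODE start sites, and the 87 flank peaks became 29 with flanks of 25 kb and 185 with 100 kb. Among the strongest 25%, promoter peaks of other pathway genes fell to 23 of 58, beside 29.3% of all genes, with 0 ligands, 4 genes of latency and activation and 4 targets. With a joining distance of 5 kb, 0 member clusters passed the limit. With windows of 50 bp either side, fewer bases were searched, and the shares fell to 25.0% for CAGAC, 36.8% for CANNTG, 4.72% for CAGCTG, 4.72% for GGAATG and 1.89% for TGTTTAC, beside 22.6%, 42.0%, 5.24%, 5.74% and 1.54% of the whole list, while AP-1 stayed at 6.13% as the whole list went from 8.05% to 3.73%. Of 40 recomputed peak densities of single genes 16 left their interval, and all 16 fell. Except for Smad3 with flanks of 100 kb, these came from stricter lists, which only remove peaks, so their direction was fixed in advance. For the strongest promoter folds, 0 of 12 left their interval. Of 9 cluster positions, taken as the percent of clusters ranked higher, 7 did. That percent fell for 6 genes and rose for Smad7, while the number of clusters rose from 20840 to 30477. The best rank of each of the 6 was farther from the top (Smad4 4117, then 4313). No paired analysis was possible because 1 library has no pair. Peaks with fewer than 7 fragments were not listed, which limits every statement on absence.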
